A study of Homo sapiens with 26 samples.

Results

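The genes described here were 8 of the 63086 genes counted in each library: the metallothionein genes MT1E, MT1F, MT1G, MT1M, MT1X and MT2A, the zinc exporter gene SLC30A1, and MTF1, which encodes the transcription factor that switches these genes on. They were chosen by name for what they do with metals, with earlier results of these data known. Their Ensembl identifiers were matched to symbols through GENCODE. Metallothioneins are small cysteine-rich proteins that bind zinc, copper and other metals through their thiol groups. SLC30A1 is a plasma membrane transporter that moves zinc out of the cell. MTF1 senses free zinc and binds metal response elements, short motifs in the promoters of metallothionein genes and of SLC30A1. Arsenite, a trivalent arsenic compound that reacts with protein thiols, is one of the metals and metalloids known to raise metallothionein RNA.

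RNA was measured in HCT116, an epithelial line derived from a colorectal carcinoma, with 24 libraries from cells carrying mCherry-IGF2BP1 and 2 from parental cells. IGF2BP1 is an RNA-binding protein that joins stress granules, and the study asked how changes in its disordered linkers alter RNA levels. The mCherry-IGF2BP1 was wild type (WT) or carried S181E in the first linker, Y396E in the second linker, or glutamines in place of arginines of the first linker (RQ). Each of these 4 populations was sampled after PBS (control) and after sodium arsenite at 500 µM for 2 h, with 3 dishes per group that were plated independently. All 8 of these groups shared the genotype IGF2BP2 KO, IGF2BP3 KO and Tet-OsTIR1-PURO. The parental cells, labelled HCT116 without further genotype, gave 1 library per treatment, so their values have no replicate error. The knockouts were made in sorted single-cell clones, and the lentiviral mCherry-IGF2BP1, driven by the human PGK promoter, was carried by cells sorted as a population from a narrow fluorescence gate. A difference between populations cannot be told apart from a difference between the sorts that made them.

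Library depth was 22508145 to 50834401 counts. Y396E arsenite replicate 3 stood apart with counts in 13897 genes, against at least 20850 in the other 23 mCherry-IGF2BP1 libraries, and results that rest on it are given with and without it. Transcripts of the mitochondrial genome took 21.1% to 27.9% of the counts in WT and RQ control libraries and 11.7% to 17.1% in those of S181E and Y396E. After arsenite it was 10.8% to 13.5% in WT and RQ and 7.55% to 10.1% in S181E and Y396E. Levels are given as CPM, the counts of a gene scaled to the total of the tested protein-coding genes in its library. That total was multiplied by a scaling factor of the library (TMM). The filters, and the MT1F mean given with them, used the plain protein-coding total instead. IGF2BP1 stood at 10.6 to 20.4 CPM in the 12 control libraries with the transgene and at 0.348 CPM in the parental control. By population, the control values were 10.6 to 14.7 CPM in WT and 12.2 to 15.6 CPM in RQ. They were 17.35 to 20.4 CPM in S181E and 15.3 to 17.6 CPM in Y396E. After arsenite IGF2BP1 was at 27.9 to 30.0 CPM in WT and 46.2 to 48.0 CPM in RQ. It was at 42.7 to 44.05 CPM in S181E and 42.3 to 44.7 CPM in Y396E. The part of these differences in the comparisons with WT was not tested. IGF2BP2 and IGF2BP3 RNA was still counted in the knockout populations at 62.3 to 91.3 and 109 to 166 CPM. Of 8 markers of colon epithelium, 7 were expressed and VIL1 had at most 7 counts. Their summed level was 3126 to 3818 CPM in control and 4497 to 5665 CPM in arsenite libraries. Among 12 markers of fibroblasts, leukocytes and endothelium, COL1A1 was the highest at up to 11.5 CPM, and the next was CD14 at up to 1.00 CPM.

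The 6 metallothionein genes lie on chromosome 16 between positions 56608584 and 56684196 (hg38, positions as given with the deposited counts). MT2A occupies 56608584 to 56609497 and MT1X 56682470 to 56684196, both on the plus strand. SLC30A1 lies on chromosome 1 at 211571568 to 211579161 and MTF1 on chromosome 1 at 37809574 to 37859592, both on the minus strand. The 250 bases before the transcription start are shown for MT1X, MT2A and SLC30A1, because MT1X rose after arsenite, MT2A was the most abundant of the 8 genes, and SLC30A1 fell. The sequences are from RefSeq (GRCh38.p14) and run 5′ to 3′ on the gene's own strand. Capitals mark matches on either strand to TGCACNC or TGCGCNC, the core letters of the metal response element.
MT1X, chr16:56682220-56682469, plus strand: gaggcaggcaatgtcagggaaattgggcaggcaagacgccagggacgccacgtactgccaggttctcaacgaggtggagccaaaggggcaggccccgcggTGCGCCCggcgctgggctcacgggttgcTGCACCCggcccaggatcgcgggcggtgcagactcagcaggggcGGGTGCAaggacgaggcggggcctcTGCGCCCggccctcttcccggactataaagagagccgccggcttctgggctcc
MT2A, chr16:56608334-56608583, plus strand: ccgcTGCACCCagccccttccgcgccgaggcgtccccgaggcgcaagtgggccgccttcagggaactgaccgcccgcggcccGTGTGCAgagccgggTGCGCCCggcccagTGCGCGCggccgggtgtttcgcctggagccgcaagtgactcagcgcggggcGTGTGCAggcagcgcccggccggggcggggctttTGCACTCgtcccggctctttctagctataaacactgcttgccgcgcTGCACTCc
SLC30A1, chr1:211579162-211579411, minus strand: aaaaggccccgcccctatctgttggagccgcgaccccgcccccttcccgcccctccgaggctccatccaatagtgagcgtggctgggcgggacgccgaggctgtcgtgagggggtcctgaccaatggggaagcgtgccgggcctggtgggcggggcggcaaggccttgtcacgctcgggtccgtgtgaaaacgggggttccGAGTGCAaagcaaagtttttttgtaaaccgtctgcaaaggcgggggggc
The MT1X window held 4 matches, of which 2 were TGCACNC and 2 TGCGCNC. The MT2A window held 7, of which 5 were TGCACNC and 2 TGCGCNC, with 1 of them beginning 8 bases before the start. The SLC30A1 window held 1 match, and the MTF1 window held 0. None of these matches overlapped another. Over 35116 RefSeq promoter windows of the same length, 24.8% held at least 1 match, 0.37% at least 4 and 0.0313% at least 7. These matches describe the letters of the windows and were not tested for binding. RefSeq windows were matched for 4 of the 8 genes, and those of MT1E, MT1F, MT1G and MT1M are not shown.

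Of the 8 genes, 5 passed the study's filter of more than 10 CPM in at least 12 libraries: MT1E, MT1X, MT2A, SLC30A1 and MTF1, each above 10 CPM in all 24. MT1F, with a mean of 6.09 CPM, was tested in a wider fit that took protein-coding genes with a mean of at least 0.5 CPM. MT1G and MT1M were too low to measure. MT1G had 10 counts over all 26 libraries with at most 2 in any, and MT1M had 9 counts with at most 3. All 9 counts of MT1M were in arsenite libraries of WT and RQ. A limit of 3 counts corresponded to 0.0585 to 0.137 CPM per library, and neither gene exceeded 3 counts in any. Changes in these 2 genes were not tested.

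The metallothionein paralogs are similar in sequence, and reads that aligned to several places were not counted. Over all annotated transcripts of each gene, 100-base windows were compared with the transcripts of 20 other metallothionein genes and pseudogenes. No window of the 6 genes was identical to one of another gene. Windows within 2 mismatches of another gene made up 4.27% for MT1E, 0% for MT1F, 6.66% for MT1G, 1.22% for MT1M, 2.13% for MT1X and 5.02% for MT2A. The windows outnumbered the exon bases on which reads were counted, at 411 against 398 for MT1M, 916 against 410 for MT1G and 1984 against 469 for MT1F. These shares are therefore not shares of the counted exons, which were not computed. The counts of these genes are uncertain by the reads from such windows.

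MT2A was the most abundant metallothionein, followed by MT1E, and both were far above MT1X and MT1F. Per kilobase of exon, MT2A stood at 1570 ± 191 CPM in WT control cells, MT1E at 545 CPM, MT1X at 31.7 CPM, SLC30A1 at 20.6 ± 1.29 CPM, MT1F at 16.2 ± 1.30 CPM and MTF1 at 3.15 ± 0.146 CPM (mean ± SD where given, n = 3). CPM is a share of the RNA in a library of bulk cells, so fewer cells expressing a gene and less of its RNA per cell cannot be told apart. MT2A remained first and MT1E second in each of the 10 groups, parental pair included. After arsenite, SLC30A1 at 10.9 ± 0.303 and MT1F at 10.2 ± 0.838 CPM per kilobase in WT cells overlapped and did not differ beyond their spread. MT2A and MT1E held 61.1% and 36.8% of the counts of the 6 metallothionein genes in WT control cells, MT1X 1.58% and MT1F 0.492%.

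**Figure D1:**
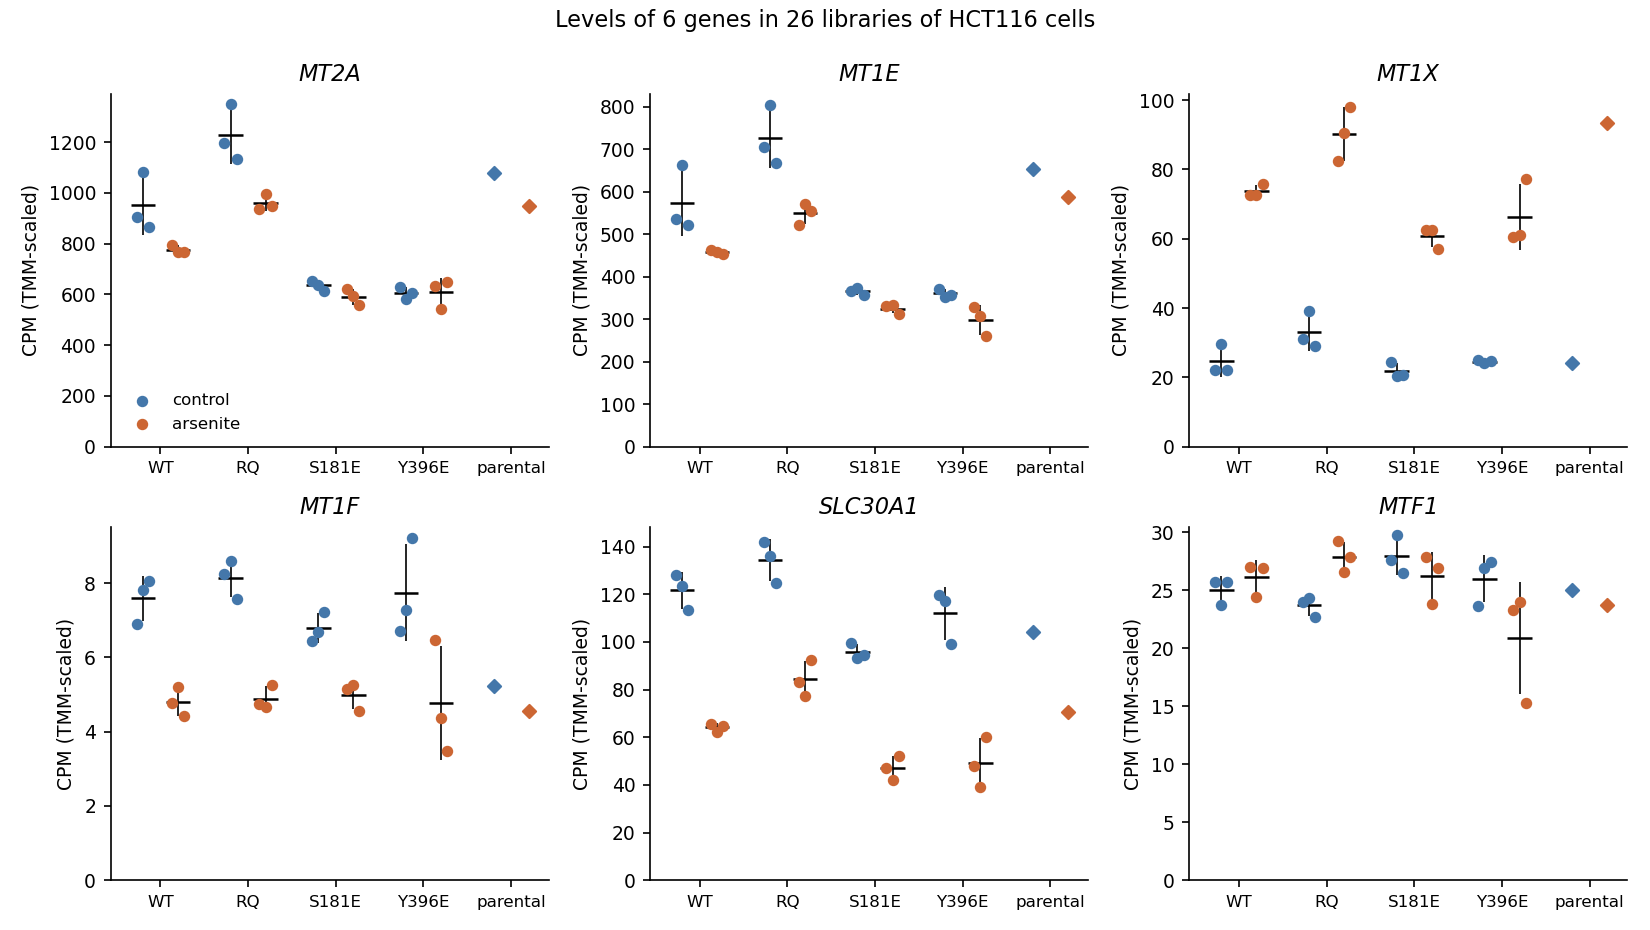
CPM of 6 genes in each library (vertical axes, linear from 0) for the 4 mCherry-IGF2BP1 populations and the parental pair, with circles for dishes, bars for the mean and SD of 3, and diamonds for single parental libraries. MT1X was higher in every arsenite library than in any control library, and SLC30A1 was lower in arsenite than in control libraries within each population.

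Of the 6 measurable genes MT1X alone was called higher after arsenite with the scaling used here, and it was so in each of the 4 populations. In WT control cells it was measured at 22.1, 29.8 and 22.1 CPM, and in WT arsenite cells at 72.6, 72.5 and 75.8 CPM. The groups did not overlap, and the log2 change was 1.59 ± 0.11 (SE, n = 3 per group), a 3.00-fold rise (adjusted p = 3.71e-12, edgeR quasi-likelihood test). In RQ cells MT1X went from 31.1, 39.2 and 29.0 CPM to 82.4, 90.4 and 97.9 CPM. S181E cells held 24.5, 20.4 and 20.8 CPM in control and 62.4, 62.5 and 57.1 CPM in arsenite. Y396E cells held 24.9, 24 and 24.6 CPM in control and 60.6, 60.9 and 77.4 CPM in arsenite, the last from replicate 3. All control libraries of the 24 thus lay below 40 CPM and all arsenite libraries above 57 CPM. The log2 changes were 1.45 ± 0.11 in RQ, 1.47 ± 0.12 in S181E and 1.44 ± 0.11 in Y396E, with adjusted p of 1.27e-11, 2.96e-11 and 3.67e-11. The Y396E change was 1.31 without Y396E arsenite replicate 3 (adjusted p = 3.62e-13).

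Among all tested genes such a call was common. Of the 9099 genes tested, 72.2% were called after arsenite in WT, 72.9% for RQ, 65.3% for S181E and 65.8% for Y396E, where a call needed an adjusted p under 0.05 and a change above 1.2-fold. Called rises made up 36.3%, 37.1%, 32% and 32.9% of the genes in that order, and called falls 35.9%, 35.8%, 33.3% and 32.9%. Of the 5 genes above the filter, 4 were called for WT, 4 for RQ, 2 for S181E and 4 for Y396E, and 2 of 5 in Y396E without its replicate 3, where 65.6% of all genes were called. The size of the MT1X rise stood at percentile 96.9 of all log2 changes for WT, 95.3 for RQ, 97.6 for S181E and 97.4 for Y396E.

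SLC30A1, the zinc exporter, moved the other way in each population. It stood at 128, 124 and 113 CPM in WT control cells and at 65.6, 62.1 and 64.7 CPM in WT arsenite cells, a log2 change of -0.92 ± 0.11 or a 1.90-fold fall (adjusted p = 1.64e-08). RQ cells went from 142, 136 and 125 CPM to 83.1, 77.2 and 92.5 CPM. S181E cells went from 99.4, 93.4 and 94.6 CPM to 47.2, 42.2 and 52.0 CPM. The control and arsenite libraries did not overlap in either population. Y396E cells held 120, 117 and 99.3 CPM in control and 47.9, 39.2 and 60.3 CPM in arsenite, again without overlap. The log2 changes were -0.67 ± 0.10 in RQ, -1.02 ± 0.11 in S181E and -1.19 ± 0.11 in Y396E, with adjusted p of 2.33e-06, 6.43e-09 and 3.29e-10. The SLC30A1 falls lay at percentiles 5.81, 15.7, 1.93 and 1.21 of all changes in WT, RQ, S181E and Y396E. The Y396E change was -1.37 without Y396E arsenite replicate 3 (adjusted p = 1.05e-14). Within WT libraries, the ratio of SLC30A1 to MT1X CPM dropped from 5.03 ± 0.83 to 0.871 ± 0.028 (SD, n = 3).

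MT2A and MT1E, the abundant metallothioneins, were not called higher after arsenite in any population, and both fell in WT and RQ. In WT cells MT2A went from 905, 1084 and 866 CPM to 796, 765 and 766 CPM, a log2 change of -0.29 ± 0.07 (adjusted p = 0.000679). MT1E went from 536, 663 and 521 CPM to 463, 458 and 455 CPM, a change of -0.32 ± 0.08 (adjusted p = 0.000585). Replicate 2 was the highest control library for both genes and for MT1X, also at 29.8 CPM. Without WT control replicate 2 the changes were -0.19 for MT2A and -0.21 for MT1E, both under the 1.2-fold threshold. Under scaling by library totals alone they were -0.13 and -0.16, also under it, and in that scaling the median of all genes moved up by 0.16. The mitochondrial share of the counts was 21.1% to 26.9% in WT control and 10.8% to 12.3% in WT arsenite libraries, and its part in these falls was not tested. By totals of nuclear genes alone MT2A changed by -0.26, just under the threshold, while MT1E was still called.

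In RQ cells both genes fell as well. MT2A went from 1198, 1351 and 1133 CPM to 936, 994 and 949 CPM (log2 -0.35 ± 0.07, adjusted p = 8.93e-05), and MT1E from 706, 804 and 667 CPM to 522, 571 and 554 CPM (log2 -0.40 ± 0.08, adjusted p = 4.92e-05). Replicate 2 was again the highest RQ control library of the 3 for MT2A, MT1E and MT1X. By library totals these changes were -0.19 and -0.23, under the 1.2-fold threshold. In S181E cells MT2A was measured at 655, 636 and 614 CPM in control and at 620, 593 and 558 CPM in arsenite, with overlap and a change of -0.11 ± 0.07 that was not called (adjusted p = 0.189). MT1E in S181E cells was 367, 374 and 356 CPM in control and 330, 333 and 313 CPM in arsenite, and its change of -0.17 ± 0.08 missed the threshold (adjusted p = 0.0535). For Y396E cells the MT2A values were 628, 583 and 604 CPM in control and 632, 544 and 647 CPM in arsenite, and the change was 0.01 with a 95% interval of -0.15 to 0.16. MT1E in Y396E cells went from 371, 353 and 357 CPM to 328, 307 and 260 CPM, the last in replicate 3. Its change of -0.27 ± 0.08 was called (adjusted p = 0.00289), but it was -0.18 without Y396E arsenite replicate 3, -0.25 without Y396E control replicate 1 and -0.22 by library totals, all under the 1.2-fold threshold.

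**Figure D2:**
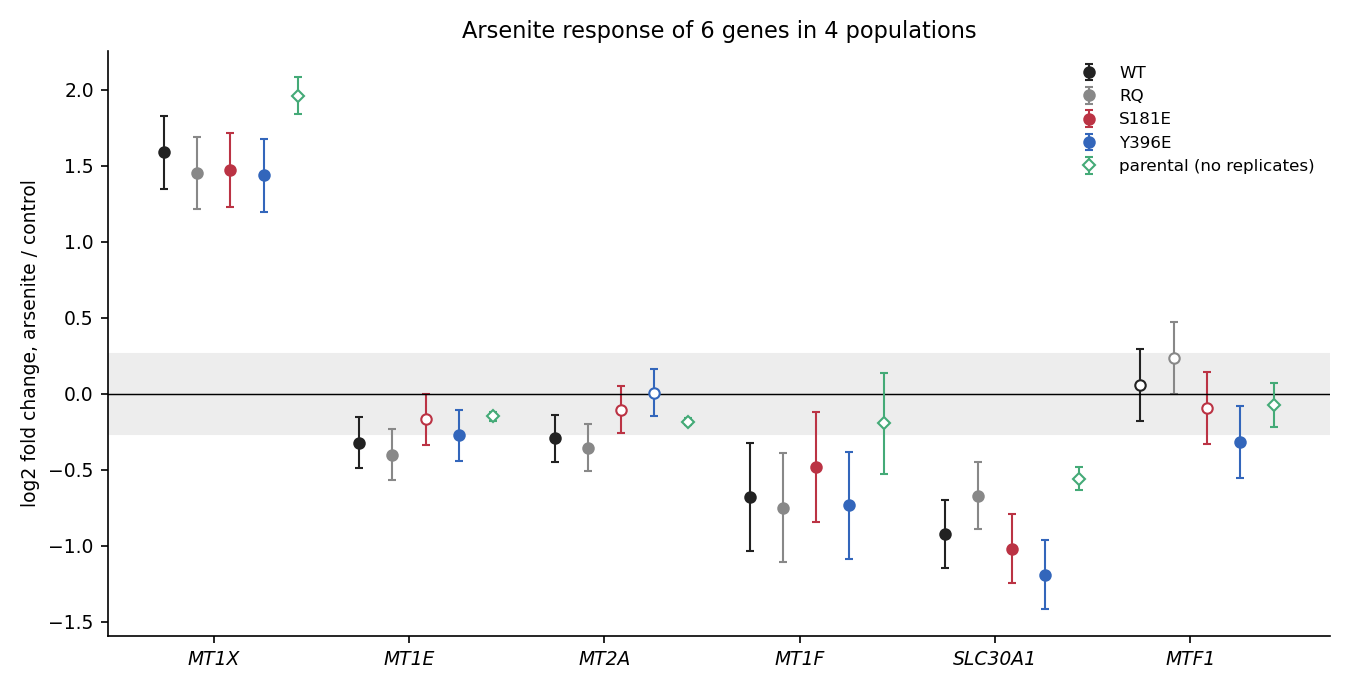
Log2 fold change of arsenite over control (vertical axis) for 6 genes in the 4 populations. The 95% intervals and the calls (filled points) come from the edgeR fits of all 24 libraries, with 3 libraries per group. The parental pair is shown as open diamonds with counting intervals only. The grey band marks changes under 1.2-fold. MT1X stood between 1.44 and 1.59 in the 4 populations, while SLC30A1 and MT1F lay below the band in each.

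MT1F, the weakest measurable metallothionein, fell in each population from a low level. WT cells held 6.90, 7.82 and 8.05 CPM in control and 4.78, 5.20 and 4.42 CPM in arsenite, and the counts behind these were 123 to 226 per library. In the wider fit of 12197 genes the log2 changes were -0.68 ± 0.17 for WT, -0.75 ± 0.17 for RQ, -0.48 ± 0.17 for S181E and -0.74 ± 0.17 for Y396E, with adjusted p of 0.000903, 0.000357, 0.0152 and 0.000438. The control and arsenite libraries of a population did not overlap in any of the 4. In that fit 64.3% of genes were called for WT, 64.9% for RQ, 58.1% for S181E and 60.4% for Y396E. The Y396E change of MT1F was -0.58 without Y396E arsenite replicate 3 (adjusted p = 0.000502). The S181E call was lost without S181E control replicate 3 (-0.43, adjusted p = 0.0542) and without S181E arsenite replicate 3 (-0.42, adjusted p = 0.0691), and the Y396E call in the fit of the compared groups alone (-0.71, adjusted p = 0.0554).

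MTF1 RNA, which encodes the metal-sensing factor itself, stayed between 15.3 and 29.7 CPM over the 24 libraries. It was 25.7, 23.7 and 25.7 CPM in WT control and 27.0, 24.4 and 26.9 CPM in WT arsenite cells, a log2 change of 0.06 ± 0.11 with a 95% interval of -0.18 to 0.30. The change was 0.23 ± 0.11 in RQ (adjusted p = 0.0589) and -0.09 ± 0.11 in S181E (adjusted p = 0.459), and neither was called. The RQ change was called by library totals (0.40, adjusted p = 0.00287) and by totals of nuclear genes (0.26, adjusted p = 0.0364). In Y396E cells MTF1 went from 23.6, 26.9 and 27.4 CPM to 23.3, 24 and 15.3 CPM, where the lowest value was that of replicate 3. This was called at -0.32 ± 0.11 (adjusted p = 0.0131), although the libraries overlapped, and without replicate 3 the change was -0.13 and not called (adjusted p = 0.111). The call was also lost without Y396E control replicate 3 (-0.28, adjusted p = 0.0552) and in the fit of the compared groups alone (adjusted p = 0.157).

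The make-up of the metallothionein RNA pool changed with these shifts. MT1X took 1.58 ± 0.084% of the counts of the 6 genes in WT control and 5.61 ± 0.20% in WT arsenite libraries (SD, n = 3). The share went from 1.65 ± 0.11% to 5.62 ± 0.41% in RQ, from 2.12 ± 0.19% to 6.18 ± 0.098% in S181E and from 2.46 ± 0.034% to 6.80 ± 0.97% in Y396E. These shares are ratios within a library and do not depend on the scaling. The summed level of the 6 genes, which does depend on the scaling, was 1557 ± 198 CPM in WT control and 1313 ± 20.2 CPM in WT arsenite. The 3 arsenite libraries lay below the 3 control libraries, of which replicate 2 was highest at 1784 CPM, against 1470 and 1418 CPM. By library totals alone MT2A and MT1E, which made up most of the sum, changed by -0.13 and -0.16 (log2) in WT. The sum was 1994 ± 189 and 1604 ± 57 CPM in RQ, also without overlap. In S181E it was 1029 ± 28.1 in control and 981 ± 44.2 CPM in arsenite, and in Y396E 997.8 ± 31.8 and 976.9 ± 56.3 CPM, with overlap in both. The ratio of MT1E to MT2A counts lay between 0.518 and 0.619 in 25 of the 26 libraries and was 0.402 in Y396E arsenite replicate 3.

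**Figure D3:**
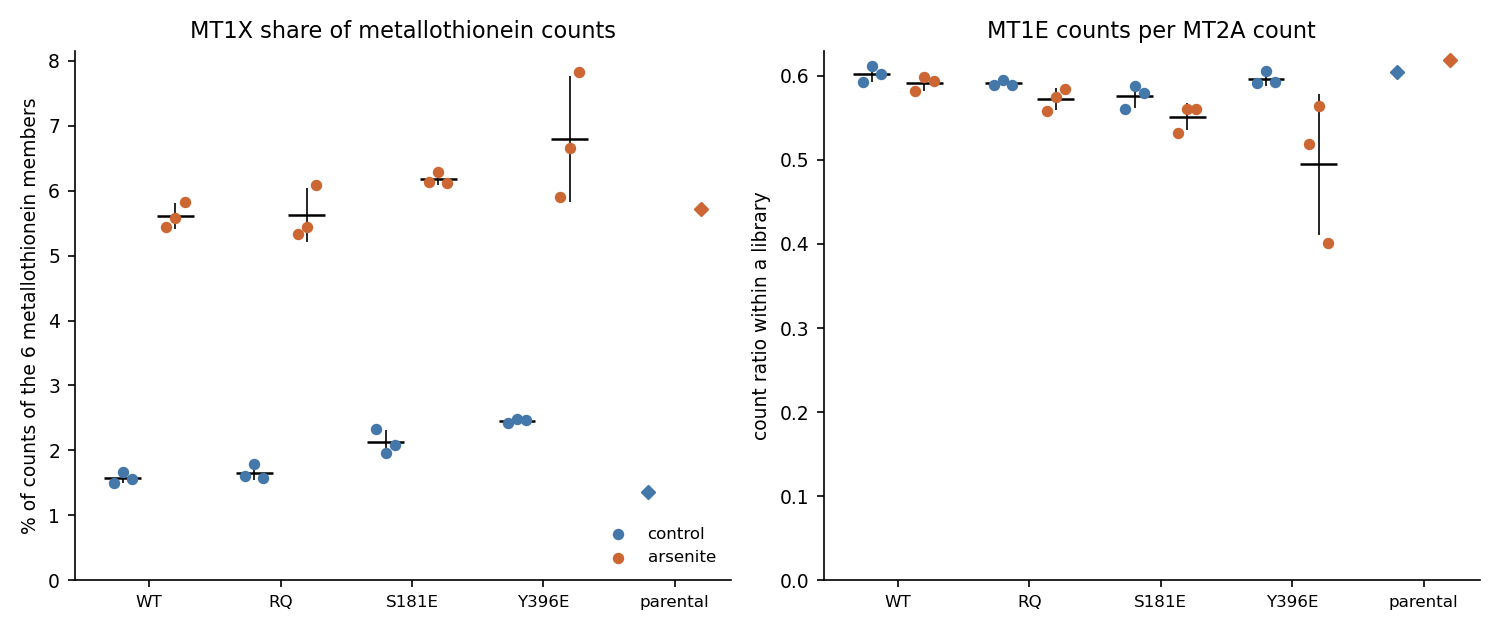
Share of MT1X among the counts of the 6 metallothionein genes (left, percent) and MT1E counts per MT2A count (right) in each library, circles for dishes with the mean and SD of 3 and diamonds for single parental libraries. The MT1X share was 1.36% to 2.48% in control and 5.33% to 7.83% in arsenite libraries, and Y396E arsenite replicate 3 stood alone at 0.402 on the right.

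The parental pair, without mCherry-IGF2BP1, had the same order of levels per kilobase as WT cells. MT1X was at 24 CPM (95% exact Poisson interval 22.3 to 25.9) in control and 93.5 CPM (90.3 to 96.7) in arsenite, a ratio of 3.89 or 1.96 on the log2 scale. SLC30A1 was at 104 CPM in control and 70.8 CPM in arsenite, a log2 ratio of -0.56 with a counting interval of -0.64 to -0.48. MT2A was at 1080 and 950 CPM, MT1E at 652 and 588 CPM, MTF1 at 25.0 and 23.7 CPM and MT1F at 5.22 and 4.55 CPM. These intervals cover counting error only, and the pair was not tested against the populations.

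The question put to the mutants was whether linker changes in IGF2BP1 altered RNA levels in unstressed cells and after arsenite. The abundant metallothioneins were lower in S181E and Y396E than in WT cells and higher in RQ cells. MT2A stood at 952 ± 116 CPM in WT control cells, against 1227 ± 112 for RQ, 635 ± 20.3 for S181E and 605 ± 22.4 for Y396E (SD, n = 3). MT1E stood at 573 ± 77.7 CPM for WT, 725 ± 70.5 for RQ, 366 ± 9.34 for S181E and 361 ± 9.37 for Y396E. The 3 libraries of S181E and of Y396E lay below all 3 of WT for both genes, and those of RQ above them. The log2 change in S181E was -0.58 ± 0.07 for MT2A and -0.65 ± 0.08 for MT1E (adjusted p = 6.08e-07 and 3.83e-07). In Y396E it was -0.65 ± 0.07 and -0.67 ± 0.08 (adjusted p = 1.26e-07 and 2.83e-07). In RQ it was 0.37 ± 0.07 and 0.34 ± 0.08 (adjusted p = 0.0054 and 0.0184). The RQ calls of both genes were lost without WT control replicate 1, without WT control replicate 3 or without RQ control replicate 2, where the changes were 0.29 to 0.33 for MT2A and 0.26 to 0.29 for MT1E. Both were also lost in the fit of the compared groups alone, at 0.37 for MT2A (adjusted p = 0.0989) and 0.34 for MT1E (adjusted p = 0.142). The S181E and Y396E calls of both genes were kept under all 10 other settings and in all 24 leave-one-out fits. The mitochondrial share was 11.7% to 17.1% in the control libraries of S181E and Y396E against 21.1% to 26.9% in WT, and both genes were also called lower by totals of nuclear genes alone.

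MT1X, the gene that arsenite raised, was not called between any mutant and WT in control cells. Its log2 change was -0.17 ± 0.12 in S181E with a 95% interval of -0.42 to 0.09, and -0.00 in Y396E with an interval of -0.25 to 0.25. In RQ it was 0.43 ± 0.12 with an adjusted p of 0.0541, just outside the threshold. It was called by DESeq2 (adjusted p = 0.0122), with RLE size factors (adjusted p = 0.0494) and without WT control replicate 2 (0.58, adjusted p = 0.00604) or RQ control replicate 3 (0.52, adjusted p = 0.0346). Leaving out Y396E arsenite replicate 1, 2 or 3 also gave a call at 0.43 (adjusted p = 0.0474, 0.0465 and 0.00566). SLC30A1 was lower in S181E than in WT control cells, at a log2 change of -0.35 ± 0.10 (adjusted p = 0.00838), a call that was lost under library totals (-0.19, adjusted p = 0.139), where the median of all genes moved by 0.16. In Y396E it was -0.12 ± 0.10 and not called (adjusted p = 0.366). MTF1 and MT1F were not called in any of the 3 mutants, except MTF1 in S181E by library totals (0.31, adjusted p = 0.0241). Of the 5 genes above the filter, 3 were called in S181E, where 31.1% of all tested genes were called, 2 in Y396E against 28.6% and 2 in RQ against 1.43%.

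**Figure D4:**
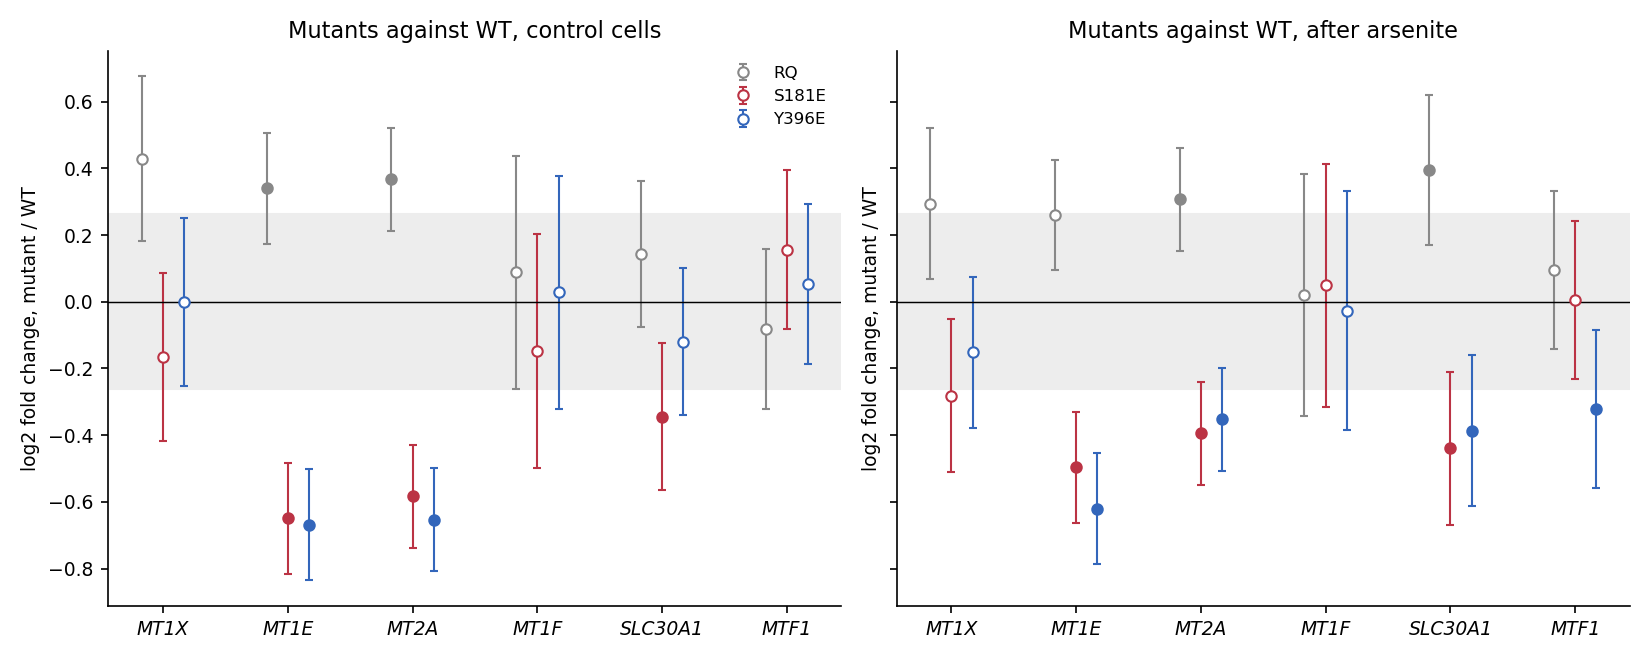
Log2 fold change of each mutant over WT (vertical axis) in control cells (left) and after arsenite (right) for 6 genes. The 95% intervals and the calls (filled points) come from the edgeR fits of all 24 libraries, with 3 libraries per group. The grey band marks changes under 1.2-fold. MT1E and MT2A lay below the band in S181E and Y396E on both sides. MT1X was not called in any mutant on either side in the edgeR fit of all 24 libraries with TMM factors.

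After arsenite MT2A and MT1E again stood lower in S181E and Y396E. MT2A stood at 776 ± 17.5 CPM for WT, 960 ± 30.3 for RQ, 590 ± 31.2 for S181E and 608 ± 55.8 for Y396E, and the log2 changes against WT were 0.31 ± 0.07, -0.39 ± 0.07 and -0.35 ± 0.07 (adjusted p = 0.0203, 0.000229 and 0.000563). MT1E stood at 459 ± 4.2 CPM for WT, 549 ± 25.0 for RQ, 325 ± 11 for S181E and 298 ± 34.8 for Y396E. It was called in S181E at -0.50 ± 0.08 and in Y396E at -0.62 ± 0.08, and not in RQ at 0.26 ± 0.08 (adjusted p = 0.0933). Without Y396E arsenite replicate 3 the Y396E changes were -0.40 for MT2A and -0.53 for MT1E, both called.

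The zinc exporter SLC30A1 differed in the same direction. It stood at 64.1 ± 1.79 CPM in WT arsenite cells, and the log2 change was -0.44 ± 0.11 in S181E (adjusted p = 0.00394) and -0.39 ± 0.11 in Y396E (adjusted p = 0.00685), the latter -0.57 without Y396E arsenite replicate 3. The Y396E call of SLC30A1 was lost without Y396E arsenite replicate 2 (-0.24, adjusted p = 0.0512) and in the fit of the compared groups alone (adjusted p = 0.108). In RQ SLC30A1 was higher by 0.40 ± 0.11 at an adjusted p of 0.05, just inside the threshold. That call was lost under 6 of 10 other settings and in 18 of the 24 leave-one-out fits, the largest adjusted p being 0.415 (RQ arsenite replicate 3 omitted). The RQ call of MT2A was lost when any 1 WT arsenite library, RQ arsenite replicate 2 or RQ arsenite replicate 3 was left out, with adjusted p of 0.0593 to 0.115, and by library totals (0.26). MTF1 was called lower in Y396E at -0.32 ± 0.11 (adjusted p = 0.0272), and without replicate 3 it was -0.14 and not called (adjusted p = 0.162). It was also lost without WT arsenite replicate 1 (adjusted p = 0.0802) or replicate 3 (adjusted p = 0.0844). MT1X was not called, at -0.28 ± 0.11 in S181E (adjusted p = 0.0612), 0.29 ± 0.11 in RQ (adjusted p = 0.217) and -0.15 ± 0.11 in Y396E (adjusted p = 0.276). Without Y396E arsenite replicate 3 it was called in all 3, at -0.28, 0.29 and -0.28 (adjusted p = 0.0102, 0.0348 and 0.0224). In fits of the compared groups alone it was called in S181E (adjusted p = 2.09e-07) and RQ (adjusted p = 3.31e-05), and in S181E also without WT control replicate 2 (adjusted p = 0.0323) or RQ control replicate 2 (adjusted p = 0.04). Of the same 5 genes, 3 were called in S181E against 13.7% of all tested genes, 4 in Y396E against 21.7% and 2 in RQ against 1.52%. Without Y396E arsenite replicate 3, 4 of the 5 were called in Y396E, 3 of them also called with it, against 18.4% of all genes.

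The phosphomimetic mutants S181E and Y396E were also compared with each other. None of the 5 genes was called in control or in arsenite cells, and of all tested genes 0% and 0% were called by edgeR. At an unadjusted p under 0.05 the counts were 289 genes in control and 1375 in arsenite cells, and 1 member in each, SLC30A1 in control and MTF1 in arsenite. DESeq2 called 1 and 10 genes and no member. MTF1 in arsenite cells was at -0.33 (adjusted p = 0.264) with all libraries and at -0.15 without Y396E arsenite replicate 3 (adjusted p = 0.977), and edgeR called it without replicate 2 (-0.45, adjusted p = 0.0303), where the low replicate 3 was 1 of 2 libraries. The 95% intervals of the log2 difference, Y396E minus S181E, were -0.19 to 0.15 for MT1E and -0.22 to 0.08 for MT2A in control cells. For SLC30A1 in control cells the interval was 0.00 to 0.45, and for MT1X -0.09 to 0.42.

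Whether the arsenite response itself differed from that of WT was tested as a difference of log2 changes. MT1X gave -0.14 ± 0.16 in RQ, -0.12 ± 0.16 in S181E and -0.15 ± 0.16 in Y396E, with 95% intervals of -0.47 to 0.20, -0.46 to 0.22 and -0.49 to 0.19, so a difference in its rise was not shown. SLC30A1 gave 0.25 ± 0.15, -0.09 ± 0.15 and -0.27 ± 0.15, none of them called. Its difference in Y396E was -0.44 and called without Y396E arsenite replicate 3 (adjusted p = 0.00531). MT2A was the one member called with all libraries, at 0.30 ± 0.10 in Y396E (adjusted p = 0.0349), where the WT fall of -0.29 stood against 0.01. Without Y396E arsenite replicate 3 the MT2A difference was 0.26 (adjusted p = 0.0504), and without WT control replicate 2 it was 0.20 (adjusted p = 0.139). It was also lost without WT arsenite replicate 2 or 3, Y396E control replicate 2 or 3, or Y396E arsenite replicate 1, with adjusted p of 0.065 to 0.0814. By library totals it was 0.19 (adjusted p = 0.0853), and in the fit of the compared groups alone 0.31 (adjusted p = 0.095), not called in either. MTF1, at -0.38 ± 0.16 in Y396E (adjusted p = 0.0811), was -0.19 and not called without Y396E arsenite replicate 3 (adjusted p = 0.161), and it was called by library totals (-0.48, adjusted p = 0.031) and without Y396E arsenite replicate 1 (-0.46, adjusted p = 0.0411) or replicate 2 (-0.50, adjusted p = 0.0197). Over all genes 0.22% were called in RQ, 16.4% in S181E and 21.5% in Y396E, the last 24% without replicate 3. The responses share the WT libraries, so they are not independent of each other.

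Other genes of metal handling were taken from lists of the families. The other metallothionein genes and pseudogenes, 11 identifiers from MT1A to MT4, had at most 4 counts in any library and none was tested. The other zinc exporters of the SLC30 family, most of which load zinc into vesicles and the secretory pathway, had 5 of 9 genes past the filter. In WT cells 5 of the 5 fell after arsenite with a median log2 change of -0.52, against -0.01 over all genes, and in RQ cells 5 of 5 fell, in S181E 4 of 5 and in Y396E 4 of 5. The largest falls in WT were those of SLC30A5 (-0.79 ± 0.07), SLC30A6 (-0.56 ± 0.09) and SLC30A3 (-0.52 ± 0.09). Zinc importers of the SLC39 family, which bring zinc into the cytosol, had 10 of 14 genes past the filter, and 8 fell in WT with a median of -0.60. In RQ 8 of 10 fell, in S181E 6 fell and 1, SLC39A10, rose (0.35, named after its value was seen), and in Y396E 7 fell. SLC39A9 (-0.92 ± 0.09), SLC39A3 (-0.84 ± 0.08) and SLC39A11 (-0.80 ± 0.07) had the largest falls in WT. Called falls made up 35.9% of all tested genes in WT.

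Of 7 copper handling genes 4 passed the filter, and in each population 3 fell and 1 rose. Over all tested genes 32% to 37.1% rose and 32.9% to 35.9% fell in the 4 populations. The gene that rose in WT was CCS, the copper chaperone of superoxide dismutase (0.56 ± 0.07). COX17, a copper chaperone of cytochrome oxidase (-0.91 ± 0.07), SLC31A1, the copper importer (-0.80 ± 0.06), and ATOX1, a copper chaperone of the secretory pathway (-0.74 ± 0.07), fell. Of 8 arsenic handling genes 5 passed. In WT, RQ and Y396E 1 rose, 1 fell and 3 were not called, and in S181E 1 rose and 4 were not called. Of all tested genes 65.3% to 72.9% were called in the 4 populations. ABCC1, an exporter of glutathione conjugates, rose in each population, with WT at 0.80 ± 0.08, RQ at 0.84, S181E at 0.92 and Y396E at 0.81. AQP3, an aquaglyceroporin, fell in WT (-0.46 ± 0.14), RQ and Y396E and was not called in S181E (-0.07).

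Between S181E and WT control cells, 15.7% of all genes were called higher and 15.4% lower. Zinc exporters had 2 of 5 called lower, SLC30A7 (-0.37 ± 0.08) and SLC30A5 (-0.36 ± 0.07). Zinc importers had 5 of 10 called lower, with SLC39A4 (-0.98 ± 0.08) and SLC39A11 (-0.53 ± 0.07) the largest. Copper genes had 2 lower, SLC31A1 (-0.34 ± 0.06) and CCS (-0.29 ± 0.08), and 1 higher, ATOX1 (0.27 ± 0.07). Of the arsenic handling genes 1 was called, ABCC2, a conjugate exporter (-0.43 ± 0.10). The median log2 change was -0.16 for the exporters, -0.27 for the importers, -0.15 for the copper genes and 0.13 for the arsenic handling genes, against 0.02 over all genes.

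**Figure D5:**
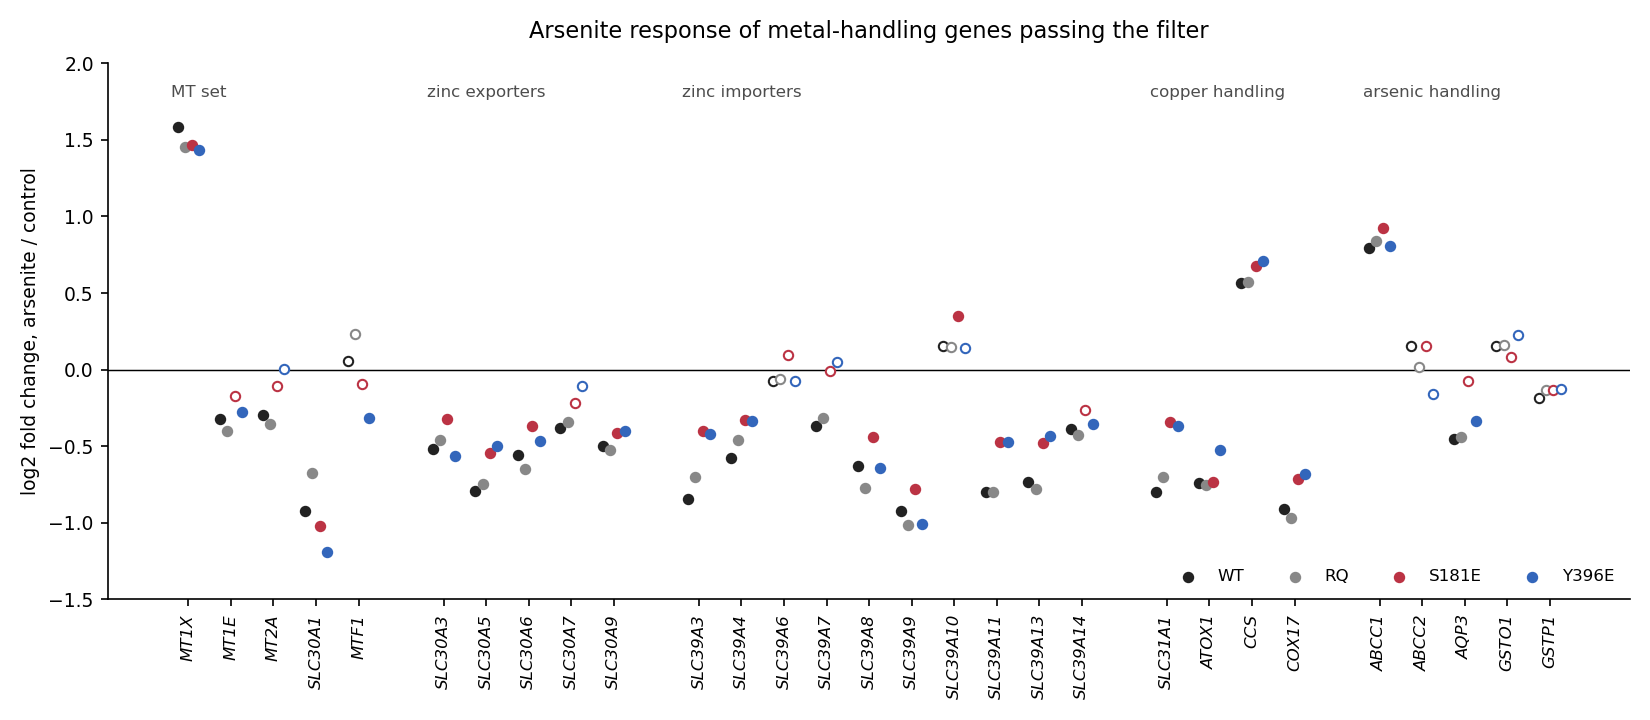
Log2 fold change of arsenite over control (vertical axis) for the metallothionein set (MT set) and 4 lists of metal-handling genes that passed the filter, 1 point per population, filled where called. MT1X, CCS and ABCC1 rose in all 4 populations, and the called zinc transporters lay below 0 except SLC39A10 in S181E.

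Genes around the metallothionein cluster had medians near 0 where MT1E and MT2A were lower. Within 1000 kb on either side, 15 other tested genes had a median log2 change against WT control of 0.03 in S181E and 0.11 in Y396E, with 1 and 2 called lower and 3 and 3 called higher, where 31.1% and 28.6% of all tested genes were called in either direction. Over 443 tested genes of chromosome 16 the medians were 0.03 and 0.01. After arsenite in WT, 6 of the 15 neighbours rose and 3 fell, between -0.74 and 1.98, where 36.3% of all tested genes rose and 35.9% fell.

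Over the 24 libraries, the log2 CPM of MT1E and MT2A had a Pearson r of 0.96, while MT1X had an r of -0.09 with MT1E, 0.03 with MT2A and -0.67 with SLC30A1. These describe libraries that share treatments and populations. The genes with the pattern most like that of MT1X were MRE11 (r = 0.99), RESF1 (r = 0.98) and OFD1 (r = 0.98). For MT1E they were AKAP12 (r = 0.98), ZDHHC6 (r = 0.97) and GGH (r = 0.96), and for MT2A SLC22A18 (r = 0.97), AKAP12 (r = 0.96) and TM7SF2 (r = 0.96). SLC30A1 was most like ATF5 (r = 0.97), SLC7A1 (r = 0.96) and MCL1 (r = 0.96). MTF1 was closest to ANGEL2 (r = 0.86), SBF2 (r = 0.85) and RBM4B (r = 0.85).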

How the data were processed

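Poly(A) RNA from the clarified lysates was sequenced as strand-specific single reads. The authors aligned the reads to hg38 with STAR 2.7.11b and deposited raw counts per gene from featureCounts (Subread 2.0.6) with GENCODE annotation, on exons and by strand, without reads that aligned to several places. Gene symbols came from GENCODE 44, which matched 62541 of the 63086 identifiers (99.14%), and counts without a symbol were up to 0.0356% of a library. No 2 libraries were identical.

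CPM of the levels are counts scaled to the total of the genes past the filter times the TMM factor of the library. CPM in the filters are counts scaled to the protein-coding total of the library. Protein-coding genes that exceeded 10 CPM in 12 or more of the 24 libraries with mCherry-IGF2BP1 were fitted together in edgeR 4.0.16 (R 4.3.3) with TMM factors (0.865 to 1.086), 8 group means and the quasi-likelihood test with Benjamini-Hochberg adjustment over 9099 genes, and MT1F in a second fit of 12197 genes. A gene was called at an adjusted p under 0.05 and a fold above 1.2, and all adjusted p-values and ± SE of log2 changes in the text come from these fits unless another tool (DESeq2 1.42.0) is named. p-values measure the spread between dishes within a group, estimated over all 8 groups together, so libraries of other populations also bear on them. They do not cover differences between the sorts that made the populations. The code was tested on simulated counts.

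The genes and the metal-handling lists were chosen with earlier results of these data known. From each list up to 3 called genes with the largest rise and fall after arsenite in WT, and up to 2 in S181E against WT in control, are named. The parental pair, 1 library per treatment, got counting intervals and no test. Alternatives were 11 other settings and 24 fits without 1 library each. Same-numbered dishes were checked for pairing: correlations of their deviations ran from -0.04 to 0.53, and all 3 pairs exceeded 0.1 in 2 of 12 comparisons, RQ against WT in either treatment.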

Additional observations from a re-analysis of the deposited data

Results flagged for a closer look

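The arsenite response of MT2A differed between Y396E and WT cells by 0.3007 on the log2 scale (SE 0.103, adjusted p = 0.0349, edgeR interaction test, n = 3 per group), and this test of the difference is why it is listed. MT2A changed by -0.29 in WT and by 0.01 in Y396E, and its arsenite libraries were below all control libraries in WT and overlapped them in Y396E. The difference was 0.26 without Y396E arsenite replicate 3 (adjusted p = 0.0504) and 0.20 without WT control replicate 2 (adjusted p = 0.139). It was 0.19 by library totals (adjusted p = 0.0853) and 0.31 in the fit of the compared groups alone (adjusted p = 0.095), so the call was lost under each of these 4 alternatives.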

How the results depend on the processing

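No log2 change of the 6 genes reversed sign as a called value under any of the settings run. Of the 5 genes above the filter, 2 were called for the arsenite response in WT under library totals only. Fitting only the groups compared gave 2 for the arsenite response in Y396E, 0 for RQ against WT in control, 2 for Y396E against WT in arsenite and 0 for the difference of responses in Y396E. For RQ against WT in arsenite the count was 1 with RLE size factors, with a mean of at least 0.5 CPM, without a filter, with all gene types and with nuclear gene totals (a setting chosen after seeing the data), and 0 with library totals. The causes were not tested. Shares of all genes called under these other settings are not given, so the counts cannot be set against them.

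Leaving out 1 library at a time gave 2 to 4 genes for the arsenite response in WT (2 without WT control replicate 2) and 2 to 4 in Y396E (2 without Y396E arsenite replicate 3). The range was 0 to 3 for RQ against WT in control and 0 to 3 in arsenite, 0 to 1 for Y396E against S181E in arsenite (1 without Y396E arsenite replicate 2) and 0 to 2 for the difference of responses in Y396E. Among these fits, shares of all genes called are given above only for that without Y396E arsenite replicate 3. The MT1X rise in WT ran from 1.51 to 1.74 in these fits and from 1.56 to 1.75 under the other settings. With the replicate number as a block, MT1X changed by 1.59 and MT1E by -0.32 in WT, and the block changed 0 of 90 calls and 0 of 15 counts, RQ against WT included. With library totals the all-gene median of the arsenite response shifted by 0.16 (WT) and 0.17 (RQ), and that of the control comparison with WT by 0.16 (S181E) and 0.13 (Y396E). MT1G had at most 2 and MT1M at most 3 counts in any library, and MT1F rested on 104 to 296 counts per library.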
